A study of Mus musculus with 3 samples.

Results

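The 8 genes described here are a group of angiogenesis factors and endothelial receptors: Vegfa, Kdr, Flt1, Angpt2, Tek, Apln, Esm1 and Plvap. They were taken by symbol from the 31062 genes of one single-cell table, not by a cut on their measured values, but with earlier results of these data known. Each of the 8 symbols matched 1 row. Vegfa was followed in carcinoma-side and immune cells, and the receptors and tip-cell genes in endothelial cells.

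New vessels sprout when a tissue releases vascular endothelial growth factor A, the product of Vegfa, which is induced when oxygen is short. Vegfa signals through Kdr (VEGFR2), and Flt1 (VEGFR1) binds the same ligand tightly and limits what reaches Kdr. Tek (Tie2) is the receptor that keeps resting vessels stable, and Angpt2 is a ligand that can loosen this state during remodelling. Apln and Esm1 are typical of the tip cells that lead a sprout. Plvap forms the diaphragms of fenestrae and caveolae, is carried by leaky vessels and is largely switched off in mature brain endothelium that holds the blood-brain barrier.

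The cells came from metastasis-bearing brains of female C57Bl/6 mice aged 2 to 3 months, in which E0771 mouse mammary carcinoma cells had been injected into the carotid. Some mice received anti-VISTA with anti-PD-L1 (named Dual TX) every other day from day 3, and others did not. The 8 samples were each stained with a hashing antibody, pooled and captured together, so that messenger RNA, 35 surface antibodies and the hashtag were read from the same cells; none of the 35 antibodies is against a protein of the 8 genes. Nothing in the labels says which hashtags were treated, so treated and untreated mice were not compared and the samples are named by hashtag number, 1 to 8. All share the strain, the tumour line and the capture. The labels of the different libraries give 1, 2 or 3 brain hemispheres per sample, and nothing states that each hashtag is a separate animal, so p-values measure the spread between hashtag samples. The suspensions had been enriched for immune cells by Percoll centrifugation. The endothelial and tumour-side cells are those that remained after that step, and their numbers say nothing of their share in the tissue.

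Of 12908 barcodes, 12334 passed the filters and 9896 carried a single hashtag. Samples held 100 to 2316 such cells. The median cell of a sample held 11244.5 to 67341 unique molecular identifiers (UMIs, each from a captured RNA molecule). Levels are UMI counts summed over the cells of one class in one sample, given as CPM, which scales each such sum to the same total, and were used with at least 20 cells. They are compared within a gene, since counts are not per length. Classes were gated on marker genes, none of them a member. The endothelial gate (Cldn5, Itm2a, Ptprb, Pecam1) held 525 cells with a median of 7204 UMIs, and 7 samples reached 20 cells, with 30 to 147 each. All 8 endothelial genes kept out of the gate were detected, from Tie1 in 66.7% of the cells to Ly6c1 in 99.8%. The tumour-side class is called Krt8-high: it held 4473 cells with Krt8 and with little of the leukocyte gene Ptprc (1.46 to 2.24 CPM in the 8 samples), at a median of 84749 UMIs. Of 14 carcinoma markers, Krt8 defined that gate, Krt18 was found in 9.59% of the cells and the other 12 in at most 2.24%, so the epithelial label does not rest on its usual markers. Other classes were 913 macrophages, 741 monocytes, 425 microglia, 497 NK cells and 956 T cells. Endothelial sums also held mural transcripts: Rgs5, a pericyte gene, stood at 214 to 1086.5 CPM over the 7 samples.

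The table gives symbols and gene identifiers without positions, and positions below are from the GRCm38.p6 annotation. Vegfa (ENSMUSG00000023951) lies at chr17:46016993-46032377, Kdr (ENSMUSG00000062960) at chr5:75932827-75979072 and Flt1 (ENSMUSG00000029648) at chr5:147561604-147726438. Tek (ENSMUSG00000006386) lies at chr4:94739086-94874976, Angpt2 (ENSMUSG00000031465) at chr8:18690263-18741562 and Apln (ENSMUSG00000037010) at chrX:48025146-48034853. Esm1 (ENSMUSG00000042379) lies at chr13:113209659-113218104 and Plvap (ENSMUSG00000034845) at chr8:71497753-71511806. All are protein-coding genes. Promoter sequence is shown for Vegfa, whose level differed with a hypoxia signature below, and for Apln and Esm1, which were found in the same endothelial cells as other members. Each is the 250 bases before an annotated start, from RefSeq on GRCm38.p6, read along the gene's strand: chr17:46032378-46032627 (minus strand), chrX:48034854-48035103 (minus strand) and chr13:113209409-113209658 (plus strand).
Vegfa: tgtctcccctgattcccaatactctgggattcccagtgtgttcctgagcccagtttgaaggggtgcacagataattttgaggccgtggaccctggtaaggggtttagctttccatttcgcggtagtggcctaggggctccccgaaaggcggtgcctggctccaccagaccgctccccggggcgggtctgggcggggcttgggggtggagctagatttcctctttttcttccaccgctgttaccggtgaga
Apln: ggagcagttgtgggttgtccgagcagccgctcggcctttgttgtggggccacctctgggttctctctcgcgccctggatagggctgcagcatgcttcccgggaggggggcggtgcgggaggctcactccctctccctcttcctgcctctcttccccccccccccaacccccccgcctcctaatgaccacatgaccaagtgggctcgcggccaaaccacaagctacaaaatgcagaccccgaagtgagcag
Esm1: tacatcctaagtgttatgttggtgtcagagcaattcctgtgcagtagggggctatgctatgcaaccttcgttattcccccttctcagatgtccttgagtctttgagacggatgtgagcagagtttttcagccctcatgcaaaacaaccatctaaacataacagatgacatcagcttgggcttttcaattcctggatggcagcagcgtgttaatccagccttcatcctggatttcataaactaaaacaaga
Capitals would mark a form of the hypoxia response core (ACGTG), of the ETS site (CCGGAA) or of the AP-1 site (TGANTCA), searched on both strands. Only these exact letters were searched, and other forms of the same motifs were not. None of these 3 windows holds any of the searched strings, so all letters are in lower case. Among 32851 windows of the same kind, 16.57% hold ACGTG, 12.03% hold CCGGAA and 6.749% hold TGANTCA. RefSeq lists 7 starts for 6 of the genes. The other Vegfa start, whose window lies inside the gene and is not printed, has 1 ACGTG match, and the Kdr window has 1 CCGGAA match. No match says only that these letters are not in this window. Angpt2 and Plvap are named only.

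Vegfa, the ligand, was not highest in the tumour-side cells. Among the classes with at least 5 samples, the highest levels were in natural killer (NK) cells, which are cytotoxic lymphocytes, followed by monocytes, then macrophages and Krt8-high cells, and the lowest were in microglia, T cells and endothelium. NK cells held 139 CPM at the lowest, 158 at the median and 237 at the highest of 6 samples. Monocytes ranged from 16.6 CPM in sample 3 to 130 CPM in sample 7 (median 59.0, n = 6). Every NK sample lay above every monocyte sample.

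Macrophages, defined here by Ms4a7, Apoe and complement genes without microglial identity genes, ranged from 15.6 to 79.8 CPM with a median of 32.1 CPM (n = 7). Krt8-high cells were the most even class relative to their level, with 25.3, 28.02 and 32.9 CPM as the lowest, median and highest of 8 samples. Their sums held 117 to 3467 Vegfa UMIs and those of macrophages 6 to 207, so counting error was smaller in Krt8-high cells. The 2 classes overlapped, and macrophages spread on both sides of the Krt8-high range. Sample 7 was the highest in both monocytes and macrophages, and it was the lowest in Krt8-high cells.

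Microglia, the resident macrophages of the brain, had 3.09, 6.68, 8.37, 7.91 and 4.06 CPM in samples 3, 5, 6, 7 and 8. T cells had a median of 4.47 CPM (2.86 to 12.3, n = 6) and endothelial cells of 4.35 CPM (0 to 9.34, n = 7). These 3 classes overlapped each other, and all lay below every macrophage sample. Neutrophils, outside that order, reached 20 cells in sample 5 alone, where Vegfa stood at 166 CPM in 27 cells; over all 83 neutrophils it was 94.6 CPM (exact Poisson interval 66.2 to 131, counting error only).

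**Figure D1:**
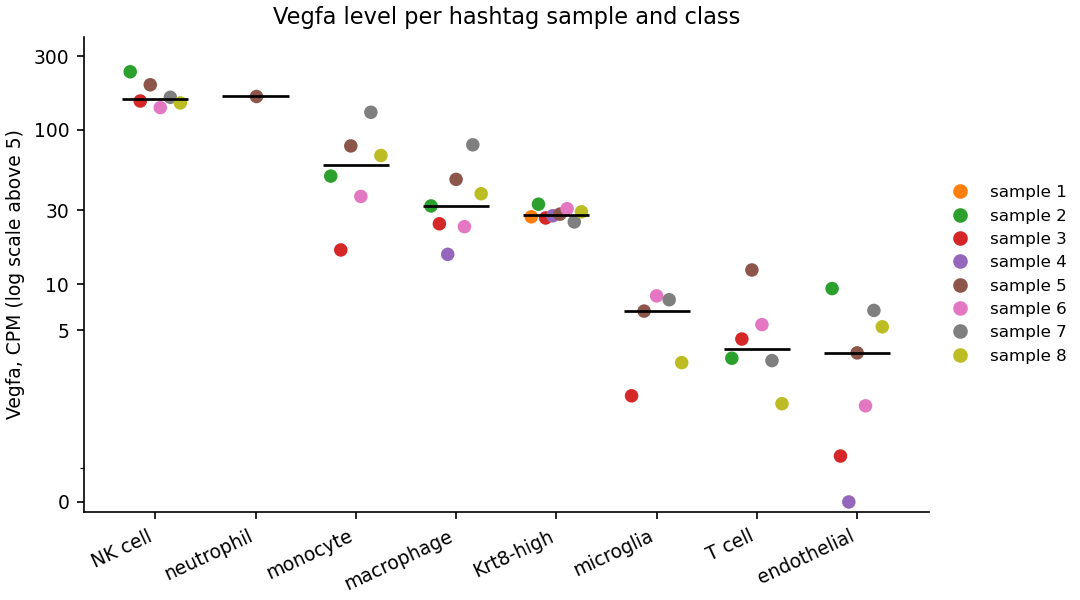
Vegfa in CPM in each cell class, on an axis that is logarithmic above 5 CPM; points are hashtag samples with at least 20 cells of the class, coloured by sample, and bars are medians. NK cells sit between 139 and 237 CPM, Krt8-high cells between 25.3 and 32.9 CPM, and microglia, T cells and endothelial cells at 12.3 CPM or less.

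The differences were tested with edgeR's quasi-likelihood test on counts summed by class and sample, keeping the sample as a block and adjusting by Benjamini-Hochberg over all genes tested. Between cell types most genes differ, so the share of all genes called in either direction is given beside each. NK cells were compared after their level had been seen. Vegfa was higher in NK cells than in Krt8-high cells by 2.67 on the log2 scale (SE 0.14, adjusted p 1.1e-15, higher in 6 of 6 samples; 67.3% of genes called). It was also higher than in monocytes (1.23, SE 0.24, adjusted p 4.5e-04, 6 of 6; 60.2% called) and macrophages (1.99, SE 0.20, adjusted p 5.5e-07, 6 of 6; 57% called). Against T cells, the other large lymphocyte class, the difference was 4.78 (SE 0.22, adjusted p 1.1e-09, 6 of 6), where 16.8% of genes were called. The median of all genes in that comparison was -0.0040, and in the comparison with Krt8-high cells it was -0.33.

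Among myeloid cells, monocytes exceeded macrophages by 0.75 (SE 0.14, adjusted p 0.0012, higher in 5 of 6 samples; 36.8% called). Without the sample block that difference was 0.78 with an adjusted p of 0.12. Both exceeded microglia in 5 of 5 samples, macrophages by 2.79 (SE 0.27, adjusted p 4.8e-06; 51.2% called) and monocytes by 3.59 (SE 0.29, adjusted p 3.7e-07; 56.9% called).

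Krt8-high cells exceeded microglia by 2.02 (SE 0.24, adjusted p 3.2e-08, 5 of 5 samples; 71.8% called) and were below monocytes by -1.52 (SE 0.27, adjusted p 9.8e-05, lower in 5 of 6; 78.1% called). Against macrophages the edgeR difference was -0.58 (SE 0.21, adjusted p 0.017; 81.3% called), with mean levels of 28.7 and 37.4 CPM. The median of all genes in that comparison was 0.30, and by CPM alone Krt8-high cells were higher in 4 of 7 samples. The call was lost without sample 5 (-0.49, adjusted p 0.073), without sample 7 (-0.32, adjusted p 0.065) and with DESeq2 (-0.53, adjusted p 0.052), so the order of these neighbours does not hold up against the spread between samples.

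Carried-over RNA was gauged from Krt8, the gene that defines the largest cells. If all Krt8 in NK cells had come from Krt8-high cells, the Vegfa carried with it would be 1.71 CPM, against 173 CPM measured over all 497 NK cells. The same estimate was 2.04 CPM for monocytes, 2.43 CPM for macrophages and 1.22 CPM for microglia. The measured levels in NK cells, monocytes and macrophages lay well above these values; the microglial samples lay at 3.09 to 8.37 CPM.

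Cells differ in depth, so shares of cells were taken after thinning each cell to 2000 UMIs. Then 28.2% of NK cells (138 of 490, exact binomial interval 24.2 to 32.4%) held a Vegfa UMI, and 46.1% before thinning. The share was 9.96% in monocytes, 6.11% in macrophages and 5.48% in Krt8-high cells, where the unthinned 78.3% rests on the depth of those cells. T cells, with 0.961% (median 5328 UMIs), give the level in a class with little Vegfa; endothelial cells were at 0.778% and microglia at 0.477% (2 of 419). The 4 classes with the higher shares stood in the order of their CPM medians. Microglia, above T cells and endothelium in CPM, were the lowest of these 3 by share. These low shares rest on few cells, 2 in microglia and 4 in endothelium, so their order is not settled.

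The other ligands of the family were taken as a list (Vegfb, Vegfc, Vegfd, Pgf and Vegfa; 5 of 6 listed symbols are in the table). In NK cells against Krt8-high cells, 2 of the 3 ligands tested were higher and 1 lower, where 67.3% of all genes were called. Vegfb, which binds Flt1 and not Kdr, was lower in NK cells (-1.97, SE 0.20, adjusted p 2.2e-09; 25.9 against 95.9 CPM). In macrophages against microglia, where 51.2% were called, 1 of the 2 tested was higher and 1 lower: Vegfb fell by 1.66 (SE 0.19, adjusted p 1.9e-05) where Vegfa rose.

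Within a class, Vegfa was set against a hypoxia signature of 24 genes that respond to low oxygen, among them glycolytic enzymes, Bnip3 and Car9, but not Vegfa. In each sample, equal numbers of cells with the most and the fewest signature UMIs, counted at 2000 UMIs per cell, were summed as hypoxia-high and hypoxia-low cells. The cells between were left out. The signature is a range and not a cell type: of 256 macrophages in sample 5, 206 lay within 2 UMIs of a cut.

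Vegfa was higher in hypoxia-high Krt8-high cells in 8 of 8 samples. The levels ran from 28.3 to 47.5 CPM in the hypoxia-high cells and from 17.0 to 30.3 CPM in the hypoxia-low cells. Sample 1 had the widest gap (46.6 against 17.0 CPM, 16 cells on each side) and sample 5 the narrowest (29.2 against 27.6 CPM). The ranges of the groups overlapped across samples. Each sample gave a summed level per group, so the spread between cells within a sample was not measured. The difference was 0.49 on the log2 scale (SE 0.085, edgeR adjusted p 5.0e-04), in a comparison that called 27.7% of all genes, 14.8% as higher and 12.9% as lower. Median depth was 86684 and 82378 UMIs. Of the 4 VEGF ligands tested 3 were higher (median 0.45, against -0.017 over all genes): Vegfa, Vegfb (0.14, SE 0.043, adjusted p 0.020) and Pgf. Pgf, a Flt1 ligand, differed by 3.05 (SE 0.41, adjusted p 7.4e-05, 4.76 against 0.577 CPM, higher in 6 of 8).

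In macrophages, Vegfa in hypoxia-high against hypoxia-low cells was 41.98 against 8.62 CPM in sample 2, 30.5 against 22.1 in sample 3 and 63.6 against 42.6 in sample 5. It was 26.7 against 14.7 CPM in sample 6, 166 against 17.6 in sample 7 and 54.4 against 16.2 in sample 8. All 6 samples moved the same way, sample 7 by the widest gap. Median depth was 13079 and 11953 UMIs. The difference was 1.40 (SE 0.29, edgeR adjusted p 0.011; 6.31% of genes called). Krt8 also differed between these macrophages, at 69.1 CPM in the hypoxia-high and 10.6 CPM in the hypoxia-low cells together, where Krt8-high cells hold 378 CPM of Krt8. It was higher in hypoxia-high cells of samples 3, 5, 7 and 8, close in sample 2 (9.69 against 8.62 CPM) and lower in sample 6 (11.7 against 18.9 CPM), and Vegfa was higher in both of these samples; the part of tumour RNA in the others was not tested. The Vegfa difference lost its call without sample 8 (1.31, adjusted p 0.056) and without the sample block (1.41, adjusted p 0.11). Nrp2, a co-receptor of the family, rose with it (0.99, SE 0.19, adjusted p 0.0074), while Kdr (-0.27, adjusted p 0.43) and Flt1 (0.27, adjusted p 0.63) did not pass.

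In monocytes the gap was 0.44 (SE 0.30, edgeR adjusted p 0.75, higher in 5 of 6 samples; 0.104% called), with sample 5 going the other way at 60.9 against 123 CPM. With cells thinned to 4000 UMIs in place of 2000, it was 1.297 (adjusted p 0.016). In NK cells it was 0.25 (SE 0.21, adjusted p 0.66, higher in 3 of 4; 1.37% called), from means of 205 and 167 CPM. Whether the gap differs between classes was not tested.

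**Figure D2:**
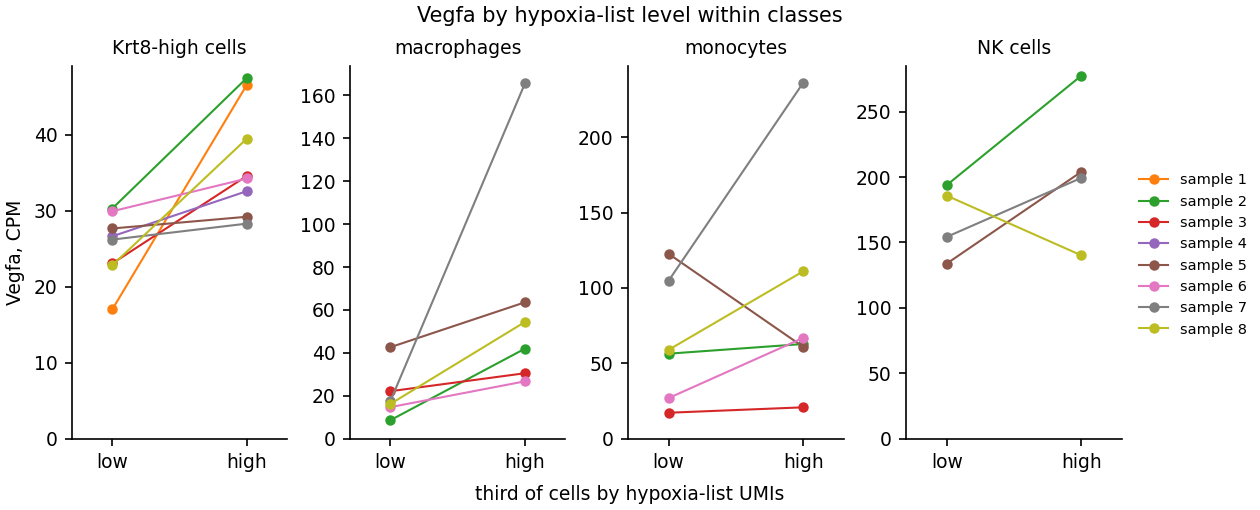
Vegfa in CPM (linear axes from 0, scaled for each panel) in the cells with the fewest and the most hypoxia-signature UMIs of each class, joined for each hashtag sample. Lines rise in 8 of 8 samples of Krt8-high cells and 6 of 6 of macrophages, with sample 7 reaching 166 CPM, and in 5 of 6 and 3 of 4 samples of monocytes and NK cells.

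The receptors marked endothelium in all 7 samples, as they were chosen to do, so these levels are a description. Flt1 stood at 1801, 2177 and 3156 CPM as the lowest, median and highest endothelial samples, Kdr at 386, 483 and 647 CPM, and Tek at 184, 206 and 263 CPM. The spread was small against the tip-cell genes below: the highest sample of each receptor was less than 2 times the lowest. Sample 2 was highest for Kdr, sample 8 for Flt1 and sample 7 for Tek, so no single sample was high for all. At 2000 UMIs per cell, 92.8% of 514 endothelial cells held a Flt1 UMI, 54.7% a Kdr UMI and 41.1% a Tek UMI. The same shares in Krt8-high cells, which should lack them, were 0.514%, 0.0447% and 0.0224%.

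Outside endothelium, Tek was close to 0: among the classes with at least 5 samples its highest median was 0.197 CPM, in monocytes. Kdr and Flt1 were not. Macrophages held Kdr at 34.2, 54.8 and 94.9 CPM as the lowest, median and highest of 7 samples, with samples 2, 3 and 4 above the others. Monocytes had a Kdr median of 19.4 CPM (11.97 to 61.7, n = 6), with sample 3 apart from the rest. Microglia had 21.7, 4.45, 6.98, 9.04 and 9.48 CPM in samples 3, 5, 6, 7 and 8. Mature dendritic cells, which carry antigen to lymph nodes, had 76.6 CPM in sample 5, the one sample with 20 cells, and 73.7 CPM over all 60 cells. NK cells gave 1 Kdr UMI in 497 cells.

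Flt1 stood at a median of 34.6 CPM in macrophages (10.4 to 64.7, n = 7) and 38.8 CPM in monocytes (20.3 to 58.2, n = 6). In microglia the samples were 0, 2.23, 2.09, 2.26 and 21.7 CPM, so sample 8 alone was above 3 CPM. Over 83 neutrophils Flt1 was 99.8 CPM, from 6 cells, and the 27 neutrophils of sample 5 gave 11.8 CPM. Carry-over from endothelium was gauged from Cdh5 and Slco1a4, endothelial genes kept out of the gate. At their rate macrophages would hold 1.62 CPM of Kdr and 7.29 CPM of Flt1, monocytes 1.26 and 5.66 CPM, and microglia 1.43 and 6.41 CPM. The medians in macrophages and monocytes were above these values for both genes, and the microglial Flt1 median was below its value. Over all 28 mural cells, Kdr stood at 171 CPM and Flt1 at 860 CPM, with 67.7 and 304 CPM as the carried-over amounts. Tek was at 23.1 CPM there, below its carried-over amount of 30.2 CPM.

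Kdr was higher in macrophages than in microglia by 2.58 (SE 0.23, edgeR adjusted p 1.9e-06, 5 of 5 samples) and lower in monocytes than in macrophages by -1.001 (SE 0.23, adjusted p 0.0036, 6 of 6). Flt1 was likewise higher in macrophages than in microglia (2.90, SE 0.48, adjusted p 3.0e-04, 5 of 5). Between monocytes and macrophages the Flt1 difference was 0.16 (SE 0.20, adjusted p 0.56). Leaving out cells marked by Scrublet made it 0.52 (adjusted p 0.015), and without sample 6 it was -0.0084. The share of cells with Kdr at 2000 UMIs was 9.84% in macrophages, 4.09% in monocytes, 2.15% in microglia and 0.213% in T cells.

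Of the co-receptors on the list, Nrp1 and Nrp2 were tested in macrophages against microglia, where 51.2% of all genes were called and, of the 4 listed genes tested, Kdr and Flt1 were higher and Nrp1 lower (-0.50, SE 0.15, adjusted p 0.015). Krt8-high cells had little Kdr (median 0.267 CPM) or Flt1 (2.35 CPM) and exceeded macrophages in Nrp2 (1.08, SE 0.080, adjusted p 7.0e-09; 132 against 55.0 CPM).

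**Figure D3:**
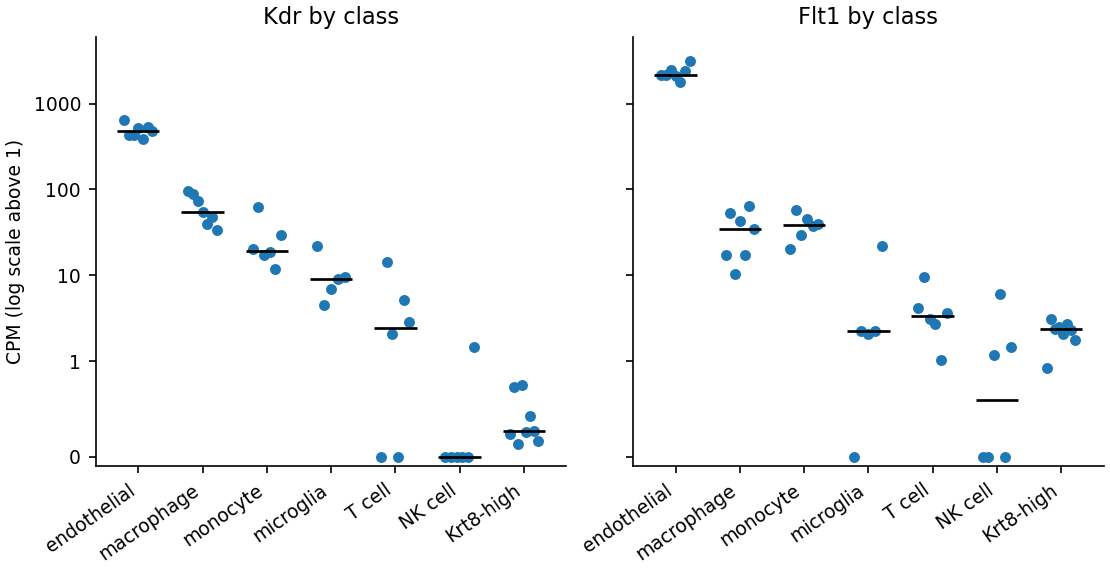
Kdr (left) and Flt1 (right) in CPM by cell class, on an axis that is logarithmic above 1 CPM; points are hashtag samples with at least 20 cells, bars are medians. Endothelial samples lie at 386 to 647 CPM for Kdr and 1801 to 3156 CPM for Flt1, and macrophages and monocytes form a second level between 10.4 and 94.9 CPM.

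The tip-cell genes and Plvap varied far more between endothelial samples than the receptors did. Apln, the ligand of the receptor Aplnr, had 33.7, 255 and 521 CPM as lowest, median and highest of 7 samples. Samples 5 and 7 were low, at 33.7 and 35.96 CPM, and the other 5 lay between 246 and 521 CPM. As a mean of per-cell CPM, sample 8 was at 35.4 CPM, nearer to samples 5 and 7 (16.1 and 9.32 CPM) than to the other 4 (102 to 247 CPM); 1 of its 29 cells held Apln at 2000 UMIs. The median over samples was 102 CPM for Apln and 74.98 CPM for Angpt2 on that measure. Angpt2 ranged from 22.5 CPM in sample 7 to 198 CPM in sample 3 with a median of 119 CPM; samples 5, 7 and 8 were below 45 CPM and the others above 118 CPM. These 2 ligands were thus both low in samples 5 and 7.

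Esm1, a proteoglycan secreted by tip cells, had a median of 9.34 CPM, from 7.85 to 178 CPM. Samples 3 and 4, at 178 and 50.9 CPM, stood above the others, which were at 7.85 to 23.8 CPM. By mean of per-cell CPM, sample 3 was highest at 42.7 CPM, but sample 4, at 13.8 CPM, was below samples 8, 5 and 7 (33.1, 23.0 and 14.1 CPM). At 2000 UMIs, 2 of 59 cells of sample 3 and 0 of 35 of sample 4 held Esm1. Plvap ranged from 51.4 CPM in sample 2 over a median of 133 CPM to 349 CPM in sample 8. Sample 8 had 30 endothelial cells and 132 Plvap UMIs, and 1 of its 29 cells held Plvap at 2000 UMIs. As a mean of per-cell CPM, in which deep cells weigh no more than others, sample 8 was at 161 CPM and sample 5 was the highest at 259.5 CPM. The 4 genes did not share an order of samples.

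Each of these genes came from few cells. At 2000 UMIs, Angpt2 was found in 7.59% of 514 endothelial cells, Plvap in 6.23%, Apln in 4.47% and Esm1 in 2.33% (12 cells, exact interval 1.21 to 4.04%). In Krt8-high cells the shares were 0.246%, 0.0224%, 0.0224% and 0 of 4473, which allows up to 0.0671%. A cell with Apln held many copies: 23 cells carried 940 of the 1190 Apln UMIs. Sample 6 gave 12 of these 23 cells and sample 3 gave 4. Those 23 cells had a median of 35615 UMIs against 6923 in the other 491. Their Krt8 and Ptprc levels were 9.83 and 3.28 CPM, against 10.7 and 20.6 CPM in the others, so tumour and leukocyte RNA was not higher in them. Mural markers were present: Rgs5 at 352 against 600 CPM, Vtn 308 against 352, Higd1b 77.6 against 77.8 and Notch3 41.5 against 53.6. Pdgfrb was at 27.3 against 50.8 CPM, Abcc9 39.3 against 22.6, Cspg4 27.3 against 23.9 and Kcnj8 28.4 against 26.6. The part of depth and of mural RNA was not tested.

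**Figure D4:**
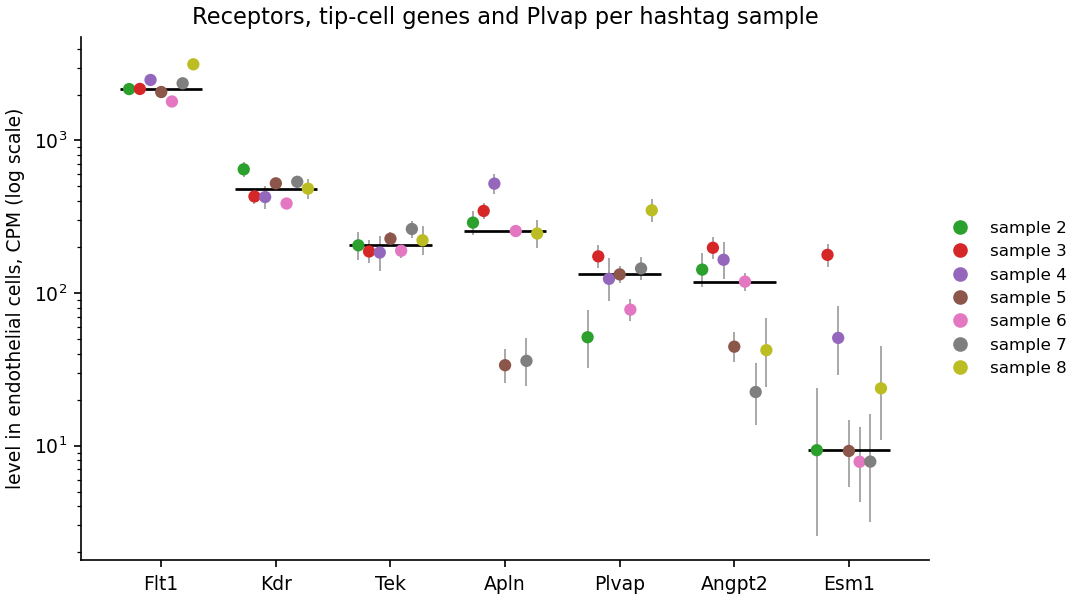
Levels of the members in endothelial cells in CPM (log axis), points coloured by hashtag sample (7 samples with at least 20 cells), horizontal bars are medians and vertical lines exact 95% Poisson intervals of counting error. Flt1, Kdr and Tek keep within a narrow band, while Apln, Angpt2, Esm1 and Plvap spread, with sample 3 high for Esm1 (178 CPM) and sample 8 for Plvap (349 CPM).

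The 4 genes were found in overlapping but unlike sets of cells. Of 514 endothelial cells at 2000 UMIs, 438 held none of them, 52 held 1, 19 held 2, 4 held 3 and 1 held all 4. Of the 12 Esm1 cells, 11 held Plvap, against 4.18% of cells without Esm1. Read the other way, 11 of 32 Plvap cells (34.4%) held Esm1. Apln went with Angpt2: 13 of 23 Apln cells (56.5%) held it, against 5.30% of the rest. Plvap was found in 3 of the 23 Apln cells (13.04%) and in 5.91% of the others. These are counts of cells of several samples in 1 capture, with 12 of the 23 Apln cells from sample 6, and carry no test.

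Receptor detection differed between these cells. Flt1 was found in 13 of 23 Apln cells (56.5%) against 94.5% of the rest. Tek was found in 2 of 23 (8.70%) against 42.6%, while Kdr was at 56.5% and 54.6%. Esm1 cells had Kdr in 10 of 12 and Tek in 1 of 12. In unthinned levels, the 23 Apln cells had 834 CPM of Flt1 and 88.5 CPM of Tek, against 2349 and 232 CPM. Sample 6 gave 12 of these 23 cells.

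**Figure D5:**
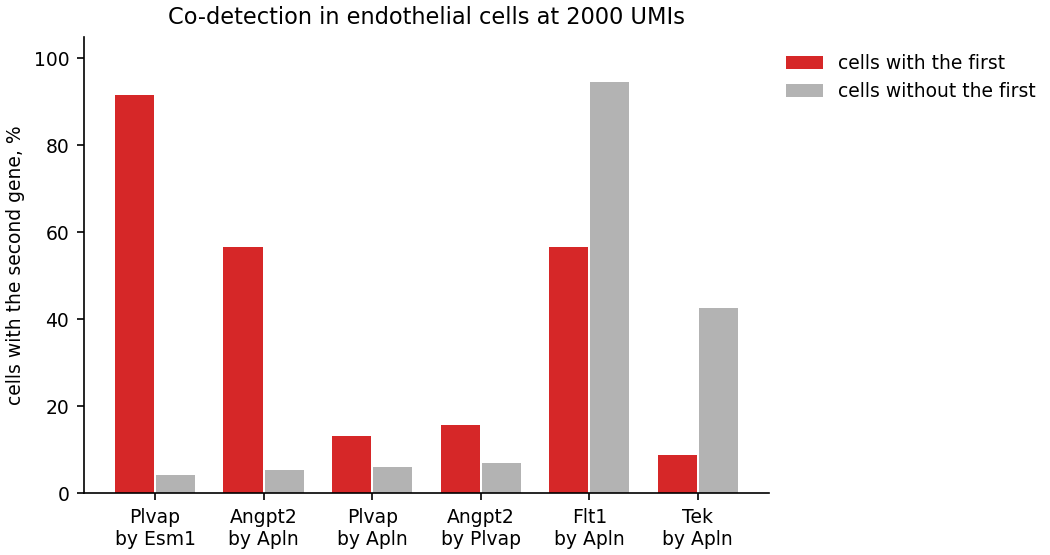
Share of endothelial cells (%, thinned to 2000 UMIs, 514 cells) that hold a second gene, in cells with (red) and without (grey) a first gene; the labels under the axis give the second gene by the first. Plvap by Esm1 shows 11 of 12 cells against 4.18%, Angpt2 by Apln 56.5% against 5.30%, and Flt1 and Tek are less often found in Apln cells. Sample 6 gave 12 of the 23 Apln cells.

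To compare over samples, endothelial cells were split by any UMI of Esm1, Apln or Angpt2 at 2000 UMIs. There were 58 positive cells (median 12390 UMIs) and 456 negative ones (6800 UMIs). Samples 5 and 6 had at least 10 cells on each side, 13 and 18 positive ones, so leaving out either leaves no test. Positive and negative cells had medians of 7089 and 6962.5 UMIs in sample 5 and of 17771.5 and 6851 UMIs in sample 6. Plvap was higher in the positive cells, with 822 against 75.3 CPM in sample 5 and 165 against 37.2 CPM in sample 6 (log2 difference 2.88, SE 0.35, edgeR adjusted p 4.5e-13; 3.72% of genes called, 1.32% as higher and 2.4% as lower). Without the sample block the adjusted p was 0.080. Over all samples at 2000 UMIs, Plvap was found in 11 of 12 Esm1 cells, 3 of 23 Apln cells and 5 of 39 Angpt2 cells. Samples 5 and 6 held 4 Esm1 cells each, and their part in the Plvap difference was not tested. With 2 samples, the p-values of this split rest largely on a spread shared over genes and say little of the spread between samples. The receptors did not pass: Tek was at 156 and 89.6 CPM in positive against 233 and 237 CPM in negative cells (-0.98, SE 0.35, adjusted p 0.095). Kdr differed by 0.70 (SE 0.31, adjusted p 0.30) and Flt1 by -0.53 (SE 0.31, adjusted p 0.52). With 5 cells a side as the minimum, a setting added after the data were seen, 4 samples entered, and Tek (-1.26, adjusted p 0.0074) and Flt1 (-0.96, adjusted p 0.016) passed as lower.

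On the list of tip-cell genes, 4 of the 11 tested were higher and none lower (median 0.87, against -0.0057 over all genes), among them Adm (2.66, adjusted p 2.4e-07), Trp53i11 (2.08, adjusted p 4.4e-06) and the basement membrane collagen Col4a1 (1.29, adjusted p 0.0019). Nrp1, the Kdr co-receptor, rose by 1.41 (SE 0.32, adjusted p 0.0011). Of 12 blood-brain barrier genes, 7 were lower and none higher (median -1.24), with the transporters Slco1a4 (-1.96) and Abcb1a (-1.49) and the glucose carrier Slc2a1 (-1.17). Of 5 arterial genes 4 were lower. In these 2 samples the summed level of the 8 mural markers was 85.1 against 877 CPM in sample 5 and 1461 against 1241 CPM in sample 6, with 5 of the 8 at 0 in the positive cells of sample 5. Over both samples 2 of the 8 were lower. Without the cells that carried mural markers, a setting added after the data were seen, the Plvap difference was 2.87 (SE 0.42, edgeR adjusted p 8.5e-09), and Tek (-0.97, adjusted p 0.24), Flt1 (-0.29, adjusted p 0.94) and Kdr (0.67, adjusted p 0.58) again did not pass.

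Endothelial cells were also split by Plvap. At 2000 UMIs 1 sample had enough cells, so any Plvap UMI at full depth was used, with samples 5, 6 and 7; the 36 positive cells were deeper (median 15254 UMIs) than the 323 negative ones (6741 UMIs). Esm1 was at 54.2, 40.2 and 29.5 CPM in positive and at 0.647, 0 and 0 CPM in negative cells of samples 5, 6 and 7, which do not overlap. That is 37 UMIs against 1, a ratio of 153 with an exact counting interval of 25.8 to 6191, and edgeR's adjusted p was 0.0019 in a comparison that called 8.7% of all genes, 3.49% as higher and 5.21% as lower.

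Apln and Angpt2 were also higher in Plvap-positive cells. Apln was at 105.1, 548 and 84.3 CPM against 20.1, 184 and 18.4 CPM (1.97, SE 0.23, edgeR adjusted p 0.0026). Angpt2 was at 74.6, 241 and 50.6 CPM against 38.8, 89.2 and 12.3 CPM (1.40, SE 0.25, adjusted p 0.014). Both were higher within each of the 3 samples, and the 2 sides overlapped across samples. At a fixed depth of 2000 UMIs with 5 cells a side, a setting added after the data were seen that samples 5 and 6 entered, neither was called: Apln differed by 0.71 (adjusted p 0.34) and Angpt2 by 0.40 (adjusted p 0.85). Without the sample block neither passed (adjusted p 0.26 and 0.22), and Angpt2 was lost without sample 6 (1.32, adjusted p 0.075).

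The receptors parted. Flt1 was at 1743, 832 and 1470.5 CPM in Plvap-positive against 2141, 2036 and 2697 CPM in negative cells, so the sides did not overlap (-0.78, SE 0.18, edgeR adjusted p 0.035). Tek did not overlap either, at 173, 94.7 and 164 CPM against 237, 212 and 299 CPM (-0.78, SE 0.20, adjusted p 0.047). Kdr went the other way, at 1020.5, 431 and 573 CPM against 429, 375 and 522 CPM, and did not pass (0.58, SE 0.23, adjusted p 0.16). The Flt1 and Tek calls are near the threshold: Flt1 was lost without sample 6 (-0.55, adjusted p 0.14), Tek without any one of samples 5, 6 and 7 (adjusted p 0.066 to 0.18), and both without the block (0.10 and 0.088) and with DESeq2 (0.058 and 0.22). At 2000 UMIs with 5 cells a side, Flt1 was -0.13 (adjusted p 0.83) and Tek -0.65 (adjusted p 0.45).

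Of 14 tip-cell genes tested 9 were higher and none lower (median 1.35, against -0.0037 over all genes), of which Esm1, Apln and Angpt2 are members; others were Trp53i11 (2.71, adjusted p 0.0025) and Col4a1 (1.54, adjusted p 0.0019). Col18a1, the collagen from which endostatin is cut, rose by 2.14 (adjusted p 0.0017). Of 12 barrier genes 10 were lower (median -1.66), including Slco1a4 (-2.65, adjusted p 0.0025) and Slc2a1 (-1.70, adjusted p 0.0064). Of the Wnt targets 4 of 6 were lower, of the arterial genes 4 of 5, and of the caveolar genes 2 of 5 were lower (Cavin1, Cavin2) and 1 higher (Ehd4). None of 10 cell cycle genes passed (median 1.48). All 8 mural markers were lower in the positive cells of the 3 samples together, with sums of 28.7 to 754 CPM against 959 to 2509.7 CPM, and 3, 2 and none of the 8 were at 0 there in samples 5, 6 and 7. Their part in these results was not tested.

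Levels of the tip-cell members outside endothelium were counted too, and those in macrophages, T cells and NK cells were low. Mural cells differed, with 28 cells in all and fewer than 20 in each sample. Over these 28, Angpt2 stood at 194 CPM and Plvap at 148 CPM, against 92.6 and 129 CPM over all endothelial cells. Esm1 was at 32.96 against 30.97 CPM, and Apln was lower, at 65.9 against 184 CPM. The amounts carried over at the endothelial rate were 13.2 CPM of Angpt2, 18.4 of Plvap and 26.3 of Apln. That rate rests on Cdh5 and Slco1a4 over all endothelial cells. In endothelial cells with Plvap at 2000 UMIs, Slco1a4 was at 74.2 CPM against 1002 CPM in those without, and Cdh5 at 925 against 446 CPM. Carry-over from such cells was not tested. Angpt2 had a median of 5.44 CPM in macrophages (1.81 to 10.2, n = 7), with 0.316 CPM as the amount carried over at the endothelial rate, and 1.47% of macrophages held a UMI at 2000. Esm1 was found in T cells, at 0, 4.75, 8.22, 23.2, 7.21 and 2.05 CPM in samples 2, 3, 5, 6, 7 and 8, where the carried-over amount was 0.0630 CPM. In all, 49 Esm1 UMIs were counted in 956 T cells, and 1.92% of 937 cells held 1 at 2000 UMIs, while NK cells had none in 497 cells. Plvap had a median of 0 CPM in macrophages, with 12.1 CPM (20 UMIs) in sample 7.

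Genes with a like pattern were taken by the Pearson correlation of log2(CPM + 1) of class medians over 8 classes, among genes with at least 50 CPM in a class. For Vegfa they were Gas7 (r = 0.952), Padi4 (0.852) and Apobr (0.837). For Kdr they were Nostrin (0.985), Morf4l1 (0.960) and Tceal8 (0.949), and for Flt1 Csrp2 (0.970), Ebf1 (0.955) and Clic4 (0.952). Emcn, Mcc and C130074G19Rik were most like Tek, and Foxq1, Tspan12 and Mcc most like Apln, all above 0.99. Pcp4l1 (0.988) led for Angpt2, Tdrp (0.949) for Esm1 and Lama4 (0.994) for Plvap. The 8 points come from 1 capture and differ in depth, and the neutrophil point is 1 sample of 27 cells. A gene seen in 1 class reaches a high value with any other such gene, so these are descriptions with no test.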

How the data were processed

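Messenger RNA, surface antibody and hashtag libraries of 1 capture were analysed. The deposited table holds whole-number UMI counts for 31062 genes and 49 antibody features in 12908 barcodes. Cell Ranger 3.1, Seurat 3.1.1 and mm10 are named in the submitters' processing notes, and the gene annotation was not given there. No value was normalized by the authors, per the file's whole numbers.

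Barcodes were kept from 500 detected genes upward and up to a mitochondrial share of 15% (12334). HTODemux (Seurat 5.3.0, quantile 0.99) called 9896 singlets, 1712 hashtag doublets and 726 negatives; only singlets were used. Scrublet (scanpy 1.11.5, expected rate 0.1) marked 1.29% of singlets and 25.2% of hashtag doublets, and leaving those singlets out is an alternative. Median depth per sample was 11244.5 to 67341 UMIs.

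A cell joined a class at a mean marker score, log2((CPM + 50) / 50), of at least 1.5 that led other classes by 0.5, with at least 3 markers found. Krt8-high cells had at least 100 CPM and 5 UMIs of Krt8 and less than 50 CPM of Ptprc. These thresholds were set after the data were seen, and 1139 singlets joined no class. Counts were summed by class and hashtag sample and tested with edgeR 4.0.16 (R 4.3.3; quasi-likelihood test, TMM scaling, filterByExpr) with Benjamini-Hochberg adjustment over all genes tested and a threshold of 0.05. The hashtag sample was a block, since both sides of each comparison come from the same hashed suspension. As a check, the deviations from group means of same-numbered sums correlated at -0.077 to 0.647 over 87 pairs. Fits were tested on simulated counts with the same spread for every gene and no sample effect, so the block was not tested there.

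Named genes are the 8 members, 15 related lists and, for each member, the 3 genes of most like pattern. The members and lists were chosen with earlier results of these data known. The Plvap split was planned at 2000 UMIs, where 1 sample had enough cells, so the split on all UMIs is given. NK comparisons and the hypoxia splits of monocytes and NK cells were added after the data were seen. Carried-over levels multiply a member's level in the source class by the level of that class's reference markers in the other class, relative to the source. Intervals are exact, at 95%, and cover counting error only. Numpy 2.4.6, pandas 2.3.3, scipy 1.17.1 and matplotlib 3.10.9 were used. Alternatives were DESeq2 1.42.0, no low-count filter, no block, each sample left out, other gates, hashtag margins, thinning depths, split cuts and cell minimums.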

Additional observations from a re-analysis of the deposited data

Results flagged for a closer look

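Of 18 levels tested for a sample far from the rest of its class, 4 had one; chance gives about 1 in 20. Vegfa in T cells stood at 12.3 CPM in sample 5, from 24 UMIs, while the other 5 samples lay between 2.86 and 5.46 CPM. Esm1 in endothelial cells stood at 178 CPM in sample 3, and the next highest sample, 4, at 50.9 CPM. By mean of per-cell CPM these were 42.7 and 13.8 CPM, with samples 8, 5 and 7 between them at 33.1, 23.0 and 14.1 CPM. Plvap in endothelial cells was 349 CPM in sample 8, from 30 cells, with 174 CPM next; as a mean of per-cell CPM sample 8 was at 161 CPM, below sample 5 at 259.5 CPM and sample 3 at 166 CPM. Kdr in monocytes was 61.7 CPM in sample 3, with 29.5 CPM next; sample 3 was also the highest for Kdr in microglia (21.7 CPM) and in T cells (14.3 CPM, 3 UMIs).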

How the results depend on the processing

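Of 401 values under alternatives, 352 kept their direction and side of the threshold (or moved within the spread), 23 lost a call, 8 gained one, 16 moved and 2 turned their sign. Vegfa in Krt8-high cells against macrophages was -0.53 with DESeq2 and -0.85 to -0.32 with 1 sample left out. Without the sample block, monocytes against macrophages gave 0.78, the tip-gene split gave 3.02 for Plvap and the macrophage hypoxia split gave 1.41, none called. With 1 sample left out, the macrophage split ranged from 1.00 to 1.82 and the NK split from 0.082 to 0.51; the NK split was -0.12 under the stricter gate. The monocyte split reached 1.297 (called) at 4000 UMIs. Flt1 in monocytes against macrophages was -0.0084 without sample 6 and at most 0.32 with another left out. The block changed no other Vegfa call.

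Mean per-cell CPM gave 4.19 for Vegfa in microglia (1.75 under the stricter gate), and, in endothelium, 3315 for Flt1, 278 for Tek, 102 for Apln and 74.98 for Angpt2 (255 and 119 from summed counts). At 1000 and 4000 UMIs the share with Vegfa was 15.7% and 40.9% of NK cells, 5.27% and 15.3% of monocytes, 3.399% and 10.1% of macrophages, and 2.33% and 10.6% of Krt8-high cells. Angpt2 was in 4.0% and 13.2% of endothelial cells, Apln in 8.31% at 4000 and Esm1 in 0.952% at 1000.

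In the Plvap split with 5 cells a side at 2000 UMIs (samples 5 and 6), Apln (0.71), Angpt2 (0.40), Flt1 (-0.13) and Tek (-0.65) were not called, and DESeq2 lost Flt1 (adjusted p 0.058) and Tek (0.22). Kdr was called without Scrublet's doublets (0.76, adjusted p 0.045) and without the low-count filter (0.55, adjusted p 0.040).

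Counts of genes called moved by over 1.5 times. Monocytes against macrophages had 2998, and 1969 with DESeq2. NK against T cells had 998, 1593 without the filter, and 576 and 627 without samples 5 and 8. The Plvap split had 576, 293 with DESeq2, 1138 without the filter, 279 without sample 5 and 228 at 5 cells a side. The tip-gene split had 310 and 57 (DESeq2) to 2277 (split on all UMIs), with 75 unblocked, 133 without Scrublet's doublets, 121 under the stricter gate, 115 at 4000 UMIs and 512 at 5 cells a side. The Krt8-high hypoxia split had 3094, and 347 unblocked. The macrophage split had 348, with 168 (DESeq2), 880 (no filter), 76 (unblocked), 222, 107 and 125 (without samples 3, 5 and 8), 85 (Scrublet), 50 (stricter gate) and 211 (cut at the median). The monocyte split had 4 (0 to 127) and the NK split 35 (8 to 66). The causes were not tested.

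In the Plvap split 1 sample had 10 cells a side when mural-marked cells were left out, under the stricter gate or at 4000 UMIs, so these were not fitted, nor was the tip-gene split with a sample left out. Depth limits low levels: 3 UMIs are worth 35.5 CPM in the neutrophils of sample 5, and microglial Vegfa rests on 1 to 12 UMIs a sample.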
